A study of Homo sapiens with 96 samples.

Results

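The collagen genes examined here were COL1A1, COL1A2, COL3A1, COL5A1 and COL5A2 (fibrillar), COL4A1 and COL4A2 (basement membrane), COL6A1 and COL6A2 (beaded) and COL12A1. They were taken by gene name from every expression table, and make up 10 of the 23611 gene names in those tables. The cells were hTERT-RPE1, a long-used cell line from human retinal pigment epithelium kept dividing by telomerase. Of the 96 samples of the series, 91 gave RNA libraries used here, and the other 5, which are chromatin samples, were not analysed here. The first set of libraries holds cells of 5 windows named T0-2, T2-4, T4-6, T6-8 and T8-10 beside asynchronous cells, with 2 libraries a group and 12 a table. Nascent RNA (RNA made recently) and input RNA were taken from whole cells and from nuclei, which gives 4 tables. The second set holds cells in which the long intergenic non-coding RNA LINC00704, LUCAT1 or MIAT was knocked down, beside control cells. Synchronised cells were taken at points S0, S2, S4 and S6, with 2 knockdown and 2 control libraries a point, and asynchronous cells gave 3 knockdown and 2 control libraries for each RNA. Synchronised cells had been held with 400 uM mimosine for 22 h, and knockdown used 130 to 150 pmol of LNA GapmeRs, which are chemically modified antisense oligonucleotides that have an RNA cut by RNase H. The sources used here give no unit for the numbers in the window and point names. The labels do not say whether replicates are separate cultures, so a p-value covers only the spread among these libraries, which may be technical.

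Collagens are proteins of 3 chains wound into a triple helix. Types I, III and V form the banded fibrils of connective tissue, with type V starting and limiting the fibril. Type IV forms the sheet-like network of basement membranes, such as the membrane on which retinal pigment epithelium rests, type VI forms beaded microfilaments, and type XII sits on the surface of fibrils. The chains are folded in the endoplasmic reticulum after prolyl 4-hydroxylases, which need iron, have modified them. Mimosine is an iron chelator.

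Both chains of the common type IV collagen are read from a single start region on chromosome 13. In RefSeq GRCh38.p14, COL4A1 (ENSG00000187498) runs on the minus strand at chr13:110148963-110307157 and COL4A2 (ENSG00000134871) on the plus strand at chr13:110307284-110513209, with 126 bases between their first bases. The region is shown because these 2 genes are compared throughout. It is chr13:110307034-110307333, plus strand, from 250 bases before the COL4A2 start to 50 after it, and capitals mark the bases that lie between the 2 starts.
COL4A1 and COL4A2 shared start region: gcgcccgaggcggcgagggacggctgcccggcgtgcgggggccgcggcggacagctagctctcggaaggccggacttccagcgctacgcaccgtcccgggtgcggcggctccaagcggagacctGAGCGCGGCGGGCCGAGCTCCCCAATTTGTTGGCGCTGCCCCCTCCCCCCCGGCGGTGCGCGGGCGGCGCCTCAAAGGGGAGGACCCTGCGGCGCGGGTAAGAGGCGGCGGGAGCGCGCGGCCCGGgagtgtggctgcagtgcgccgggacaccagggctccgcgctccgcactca
G and C made up 77.7% of the 300 bases and 80.2% of the bases between the starts. Searched on both strands, CCAAT had 1 match and GGGCGG had 1, both between the starts, and TATAAA had none. Of 35116 RefSeq promoter windows of the same length, 34.6% held CCAAT, 45.0% held GGGCGG and 11.5% held TATAAA. None of the 3 motifs contains another.

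The other members lie apart from this pair. COL1A1 (ENSG00000108821) is at chr17:50184101-50201631, COL1A2 (ENSG00000164692) at chr7:94394895-94431227, COL5A1 (ENSG00000130635) at chr9:134641803-134844843 and COL12A1 (ENSG00000111799) at chr6:75084326-75206053. COL3A1 (ENSG00000168542, chr2:188974373-189012746) and COL5A2 (ENSG00000204262, chr2:189031898-189441111) are 19151 bases apart with no RefSeq gene between them. COL6A1 (ENSG00000142156, chr21:45981770-46005048) and COL6A2 (ENSG00000142173, chr21:46098112-46132848) are 93063 bases apart, with 3 RefSeq genes between them. Coordinates are those of RefSeq on GRCh38.p14, and the expression tables themselves list none.

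Values are the RPKM that the authors deposited, which are reads scaled to gene length and library size. The length used is close to that of the whole RefSeq gene from start to end for 8 of the 9 members with a length (158187 bp for COL4A1, 18344 bp for COL1A1), introns included. For COL5A2 it is 147984 bp, or 36.2% of the RefSeq span. Levels of different genes are levels per base of gene and not per base of mRNA. Libraries held 6.39 to 28.6 M gene reads in the window set, 9.11 to 23.4 M in synchronised and 26.4 to 50.5 M in asynchronous knockdown sets. Each targeted RNA was lower in all of its knockdown libraries than in all controls of the same table, in synchronised cells (LINC00704 0.550 to 1.61 against 1.89 to 4.04 RPKM, LUCAT1 0.133 to 0.379 against 0.440 to 0.994, MIAT 0.0718 to 0.221 against 0.243 to 0.323) and in asynchronous cells. The mesenchymal filament gene VIM stood at 134 to 444 RPKM in whole-cell input RNA, and the pigment epithelium gene OTX2 at 0.732 to 2.64 RPKM. RPE65 (0 to 0.169 RPKM) and TYR (0.00797 to 0.263 RPKM), which mark mature pigment epithelium, and the epithelial gene CDH1 (0.00373 to 0.201 RPKM) were near 0 there. Some epithelial keratin genes were not near 0 in either set. In nuclear input RNA of the window set KRT8 averaged 1.84 RPKM in window and 4.44 RPKM in asynchronous libraries. KRT18 and KRT8 averaged 67.5 and 11.6 RPKM in the asynchronous controls set beside MIAT knockdown. In the synchronised controls set beside LUCAT1 knockdown KRT8 averaged 4.33 RPKM and KRT7 1.09 RPKM. The mesenchymal marker PDGFRB, unlike VIM, was low in those controls, at 1.69 RPKM. Libraries stood apart by number in whole-cell input RNA. The median of endothelial, blood and neural marker genes was 0.0354 to 0.273 RPKM in the 5 window libraries numbered 2 and 0.00972 to 0.0206 RPKM in those numbered 1. The blood marker HBB reached 72.4 RPKM in the whole-cell nascent T0-2 library numbered 2, with a median of 1.12 RPKM over that table. Member levels, class shares and differences in whole-cell input RNA are therefore also given for each number. Nuclear input RNA also stood apart by number. The gene listed as RNU4-2 held 38.2 to 48.3% of the RPKM sum in its libraries numbered 2. In those numbered 1 the highest gene was RF00100, at 5.44 to 13.5%. Some nuclear input values are given by number below.

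Of the 10 genes, 6 stood above the median marker gene of other tissues in every window-set library and 4 did not. Over the 12 libraries of a table COL4A1 had the highest median of the 10 in every kind of RNA, at 4.25 and 5.83 RPKM in nascent and input RNA of whole cells and 7.74 and 7.99 RPKM in nascent and input RNA of nuclei. COL4A2 had medians of 2.4, 3.93, 4.38 and 5.22 RPKM in the same order. COL12A1 had 2.90, 3.04, 4.56 and 4.26 RPKM. COL12A1 and COL4A2 thus exchanged places between kinds of RNA, and their ranges overlapped in each of the 4 tables. Next came COL1A1 (0.954, 2.04, 1.23 and 2.79 RPKM) and COL5A2 (1.04, 1.15, 1.27 and 1.76 RPKM), whose ranges also overlapped in each table, and then COL6A1 (0.237, 0.474, 0.317 and 0.380 RPKM). The order in whole-cell input RNA differed by library number. The medians of the 5 window libraries numbered 1 were 5.77 RPKM for COL4A1, 3.43 for COL12A1, 2.65 for COL4A2, 1.19 for COL5A2, 0.543 for COL1A1 and 0.193 for COL6A1. In those numbered 2 they were 11.7 RPKM for COL1A1, 8.85 for COL4A1, 7.36 for COL4A2, 1.74 for COL12A1, 1.37 for COL6A1 and 1.26 for COL5A2. In nuclear input windows COL4A1 had the highest median by either number. It was at 10.4 to 12.5 RPKM by number 1 and 5.30 to 7.98 RPKM by number 2. The nuclear input medians were 1.55 and 3.96 RPKM for COL1A1 and 5.16 and 3.34 RPKM for COL12A1, by number 1 and 2. These levels are set side by side within a table, since the tables were scaled separately.

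The type IV pair held most of the summed RPKM of the members in the median library. In whole cells its share had a median of 51.6% (range 36.9 to 61.2%) of nascent and 52.0% (43.4 to 63.4%) of input RNA. In nuclei it had a median of 61.2% (42.6 to 71.3%) of nascent and 59.7% (46.8 to 72.9%) of input RNA. The fibrillar genes held medians of 21.7, 22.6, 13.8 and 18.8% in the same order, with a range of 10.3 to 47.1% in whole-cell input RNA. The beaded genes held at most 5.54% in these 48 libraries. In whole-cell input RNA the window libraries numbered 1 had 10.3 to 20.0% fibrillar, 49.98 to 63.4% type IV and 25.0 to 29.0% COL12A1, and those numbered 2 had 28.0 to 47.1, 43.4 to 59.9 and 4.66 to 8.11%. COL4A2 was at 0.594, 0.779, 0.573 and 0.651 times the COL4A1 level in the median library, and in whole-cell input windows at a median of 0.491 by number 1 and 0.811 by number 2. In nuclear input windows it was at 0.428 to 0.507 by number 1 and 0.733 to 0.839 by number 2. The pooled 0.651 lies between these ranges. The fibrillar share there was 9.35 to 20.5% by number 1 and 18.7 to 33.8% by number 2, and the type IV share 59.4 to 72.9% and 46.8 to 63.5%.

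**Figure D1:**
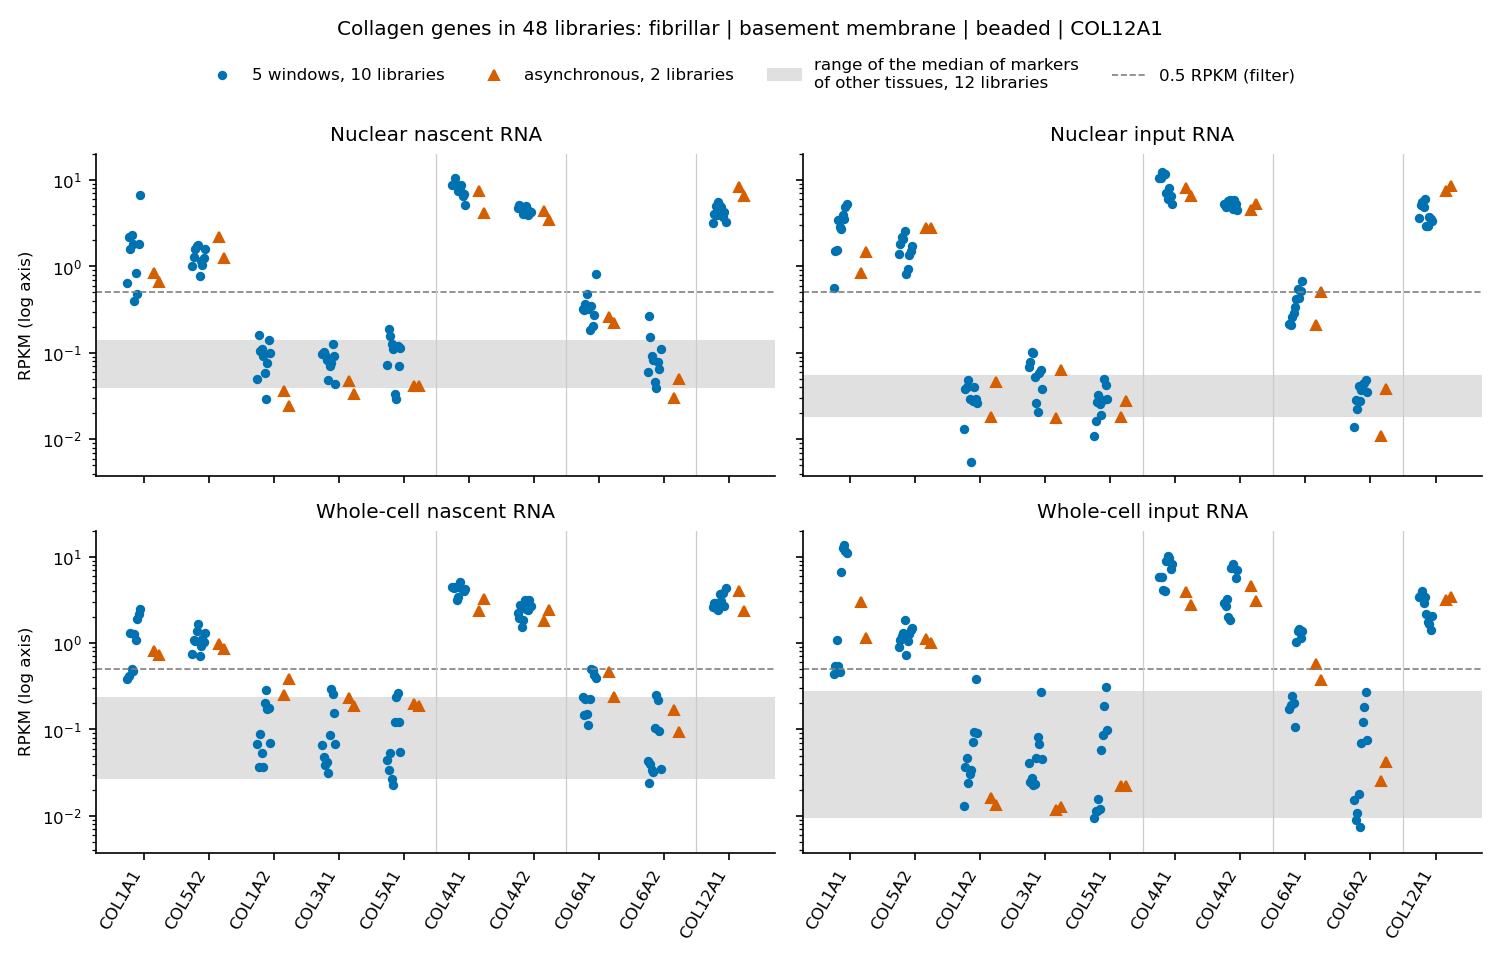
RPKM of each collagen gene (log axis) in 48 libraries, 12 for each of 4 kinds of RNA; blue circles are the 10 window libraries and orange triangles the 2 asynchronous ones, the grey band spans the per-library median of marker genes of other tissues, and the dashed line is 0.5 RPKM. COL4A1, COL4A2, COL12A1 and COL5A2 stand above the line in every library, while COL1A2, COL3A1, COL5A1 and COL6A2 lie in or near the grey band.

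The partner chains of type I and type VI collagen were hardly present. COL1A2, the second chain of type I, had 0.00552, 0.0478 and 0.387 RPKM (lowest, median, highest of 48 libraries of the window set). COL3A1, the type III chain, had 0.0116, 0.0636 and 0.294 RPKM. COL5A1, the partner of COL5A2 in type V, had 0.0095, 0.0421 and 0.313 RPKM, and COL6A2, the partner of COL6A1, had 0.00737, 0.0433 and 0.275 RPKM. None of these values reached 0.5 RPKM. Each was set against the median of marker genes of other tissues in the same library. The median ratio was 1.06 for COL1A2, 1.18 for COL3A1, 0.956 for COL5A1 and 0.958 for COL6A2. Per base of gene, these 4 genes thus lay at the level of such markers in the median library. For COL6A1 the ratio was 6.49 (1.11 in its lowest library), for COL5A2 25.1 and for COL1A1 26.3. It was 79.5 for COL12A1, 101 for COL4A2 and 122 for COL4A1. These ratios depend on gene length, which is 203070 bp for COL5A1 and 18344 bp for COL1A1. COL5A1 had a median of 206.5 reads in whole-cell nascent RNA, against 204.5 for COL1A1. In whole-cell input RNA it had 75.5, against 758 for COL1A1. In synchronised knockdown and control libraries the medians were 0.0292 RPKM for COL1A2, 0.0407 for COL3A1, 0.0197 for COL5A1 and 0.0164 for COL6A2. These 4 genes stayed below the filter of the test described below, and single libraries went up to 4.81 times the median marker (COL1A2 in the window set). The markers themselves were unequal, since HBB alone had a higher median in whole-cell nascent RNA than COL1A1, COL5A2 and COL6A1. In the asynchronous knockdown tables, COL1A2 was not analysed for any of the 3 RNAs, COL3A1 only for MIAT, and COL6A2 only for LUCAT1 and MIAT.

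The first comparison asked how collagen RNA in cells of the 5 windows differed from that in asynchronous cells. A gene was tested where at least 2 libraries of the table reached 0.5 RPKM, with limma on log2(RPKM + 0.25), and passed at a Benjamini-Hochberg adjusted p under 0.05 over all tested genes. None of the 5 members tested in nascent RNA of whole cells or nuclei passed, and none of the 6 tested in the inputs did. Over all tested genes, in whole cells 0.406% passed in nascent RNA (1387 at an unadjusted p under 0.05) and 0.0305% in input RNA (865), and in nuclei 4.5% passed in nascent (1.95% higher and 2.54% lower; 1987) and 4.57% in input RNA (1.96% higher and 2.61% lower; 1844). The members' median log2 difference was 0.19, 0.16, 0.21 and 0.09, against 0.05, -0.08, -0.01 and 0.00 for all tested genes. Fewer cells with a transcript and less of it per cell cannot be told apart in such bulk libraries.

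COL12A1 stood lowest against asynchronous cells in nuclei. In nuclear nascent RNA its lowest, median and highest window libraries had 3.16, 4.12 and 5.55 RPKM, against 8.38 and 6.62 RPKM in the 2 asynchronous libraries. All 10 window libraries lay below both asynchronous ones. The log2 difference was -0.78 ± 0.24 (SE), with an adjusted p of 0.101. In nuclear input RNA the windows had 2.95, 3.67 and 6.04 RPKM, against 7.52 and 8.49 RPKM, again without overlap, and the difference was -0.94 ± 0.28 with an adjusted p of 0.104. Libraries of nuclear input RNA with the same number deviated together. With the number as a block the adjusted p was 0.0031, in a fit in which 34.4% of genes passed. In whole cells the groups overlapped, with -0.02 ± 0.27 in nascent RNA (-0.56 by number 1 and 0.52 by number 2) and -0.36 ± 0.42 in input RNA (0.12 and -0.83). The difference between nuclei and whole cells was not tested.

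The fibrillar genes COL5A2 and COL1A1 lay in opposite directions in nuclear input RNA, and passed only with the library number as a block. COL5A2 had 0.822, 1.6 and 2.59 RPKM (lowest, median and highest) in the windows, against 2.81 and 2.77 RPKM in asynchronous cells, with no overlap. Its difference was -0.75 ± 0.27, with an adjusted p of 0.172, and of 0.0024 with the number as a block. COL1A1 had 0.569, 3.17 and 5.25 RPKM in the windows, against 0.832 and 1.48 RPKM, where the groups overlapped. Its difference was 1.08 ± 0.52, with an adjusted p of 0.314, and of 0.0051 with the block. In this blocked fit 3314 of 9633 genes (34.4%) passed, so that a pass there was common. In nuclear nascent RNA the differences were -0.31 ± 0.21 for COL5A2 and 0.73 ± 0.47 for COL1A1, neither past the threshold.

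In whole-cell input RNA COL1A1, COL4A2 and COL6A1 lay on opposite sides of asynchronous cells by library number. COL1A1 in windows T0-2 to T8-10 was 0.435, 0.543, 1.08, 0.549 and 0.458 RPKM in the libraries numbered 1. It was 6.71, 12.7, 13.6, 11.7 and 11 RPKM in those numbered 2, against 2.95 and 1.14 RPKM in asynchronous libraries 1 and 2. The libraries numbered 1 were thus below, and those numbered 2 above, both asynchronous ones. The difference was -1.94 by number 1 alone and 2.99 by number 2 alone, and 0.53 ± 1.62 over both. COL4A2 followed the same division, at -0.83 and 1.14, and so did COL6A1 at -0.92 and 1.27. COL4A1 was above asynchronous cells by either number, at 0.35 and 1.58. Its windows had 4.02, 6.53 and 10.3 RPKM, against 3.89 and 2.77 RPKM, with no overlap, and the pooled difference was 0.97 ± 0.41 with an adjusted p of 0.543. The level of other-tissue markers also differed by number in these libraries, as given above, and its part in these values was not tested. COL5A2 did not divide in this way, at 0.12 by number 1 and 0.19 by number 2. In whole-cell nascent RNA COL1A1 was at -0.39 by number 1 and 1.00 by number 2. In whole-cell nascent, nuclear nascent and nuclear input RNA, COL4A1 differed by 0.54 ± 0.21, 0.48 ± 0.27 and 0.24 ± 0.36 and COL4A2 by 0.16, 0.21 and 0.09, and none of these passed. In nuclear input RNA COL4A1 was at 0.48 by number 1 and -0.0022 by number 2, and COL4A2 at 0.23 and -0.06.

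**Figure D2:**
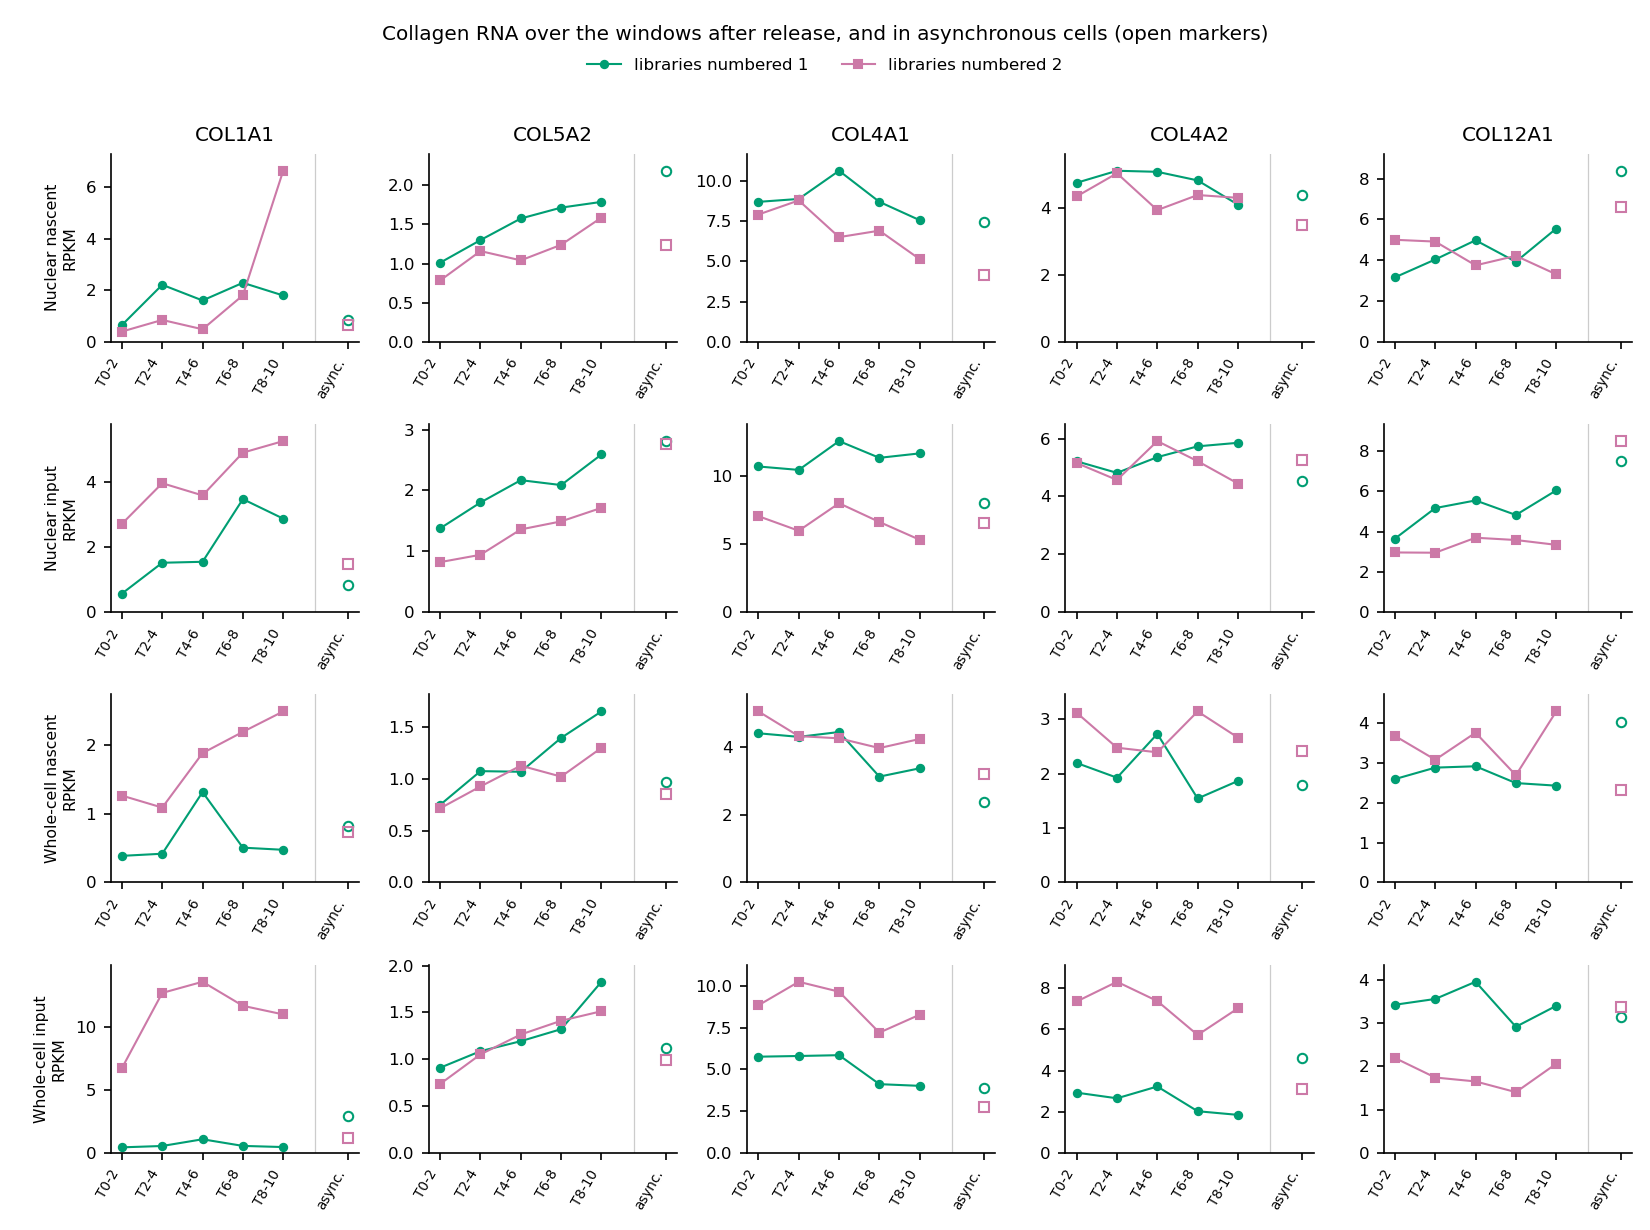
RPKM (linear axes from 0) of 5 collagen genes in windows T0-2 to T8-10 and in asynchronous cells (open markers, right), in rows for 4 kinds of RNA; green circles are libraries numbered 1 and pink squares those numbered 2. In whole-cell input RNA the number 2 line of COL1A1 runs from 6.71 to 13.6 RPKM and the number 1 line from 0.435 to 1.08 RPKM, whereas of the windows COL5A2 is lowest at T0-2 and highest at T8-10 in every row.

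Lists of genes that act on or bind collagen were read beside the chains, with values given as windows against asynchronous cells. Among modifying enzymes and chaperones tested in nuclear input RNA, 3 of 18 were higher in the windows and 1 was lower, where 1.96% of all tested genes were higher and 2.61% lower. The catalytic prolyl 4-hydroxylase subunits P4HA2 and P4HA1 were higher, at 3.40 against 1.38 RPKM for P4HA1 (log2 difference 1.1, adjusted p = 0.0191). P4HB, their common partner subunit, was at 26.7 against 14.5 RPKM (0.88, adjusted p = 0.0467). SERPINH1, the collagen chaperone HSP47, was lower, at 7.01 against 16.5 RPKM (-1.20, adjusted p = 0.0107). In nuclear nascent RNA the same 2 catalytic subunits and SERPINH1 passed in the same directions, P4HA2 at 1.18 and P4HA1 at 0.95, and SERPINH1 at -1.17. ITGA2, a subunit of a collagen-binding integrin, was higher in nuclear input (1.26), nuclear nascent (1.04) and whole-cell nascent RNA (1.29). Among other collagens in nuclear input RNA, 2 of 10 were higher, COL17A1, a hemidesmosome collagen, at 0.547 against 0.174 RPKM and COL6A3, the third chain of type VI, at 0.511 against 0.218 RPKM. The median difference was -0.25 for the modifying enzymes and chaperones and 0.42 for the other collagens, against 0.00 for all tested genes. KRT8, an epithelial keratin, was lower in nuclear input RNA (-1.12). These passes rest on both asynchronous libraries. Without the one numbered 1, no gene at all passed in nuclear input RNA. Without either asynchronous library none of the 7 passes of these lists in nuclear input RNA and none of the 4 in nuclear nascent RNA was left, and the ITGA2 pass in whole-cell nascent RNA was lost without any 1 of the 12 libraries.

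The second comparison set the last window, T8-10, against the first, T0-2. No member passed in any kind of RNA. Over all tested genes 0.358% passed in nuclear nascent and 0.415% in nuclear input RNA, and 0% in whole-cell nascent (767 at an unadjusted p under 0.05) and whole-cell input RNA (380). The median of all tested genes was 0.12, 0.09, 0.15 and 0.12 in whole-cell nascent, whole-cell input, nuclear nascent and nuclear input RNA.

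COL5A2 was lowest in the first window and highest in the last throughout. In nuclear nascent RNA it had 1.01, 1.30, 1.58, 1.71 and 1.79 RPKM from T0-2 to T8-10 by number 1 and 0.784, 1.16, 1.04, 1.24 and 1.59 RPKM by number 2. In whole-cell input RNA it had 0.909, 1.09, 1.19, 1.32 and 1.83 RPKM by number 1 and 0.736, 1.05, 1.26, 1.41 and 1.51 RPKM by number 2. T0-2 was the lowest and T8-10 the highest of the 5 windows in 8 of 8 sets, where a set is a kind of RNA and a library number. Of 8492 genes tested in all 4 tables, 3 did so (0.0353%). This count was chosen after the values were seen, and sets of the same number may share cells. The T8-10 level was 1.47 against 0.732 RPKM in whole-cell nascent, 1.67 against 0.823 in whole-cell input, 1.69 against 0.897 in nuclear nascent and 2.15 against 1.1 in nuclear input RNA. The log2 differences were 0.80 ± 0.22, 0.84 ± 0.22, 0.76 ± 0.27 and 0.84 ± 0.35, with adjusted p of 0.344, 0.837, 0.179 and 0.388. In nuclear input RNA the adjusted p was 0.0102 with the number as a block, a fit in which 22.2% of genes passed. In whole-cell RNA, where same-numbered windows also deviated together, the blocked adjusted p was 0.120 in nascent and 0.222 in input RNA.

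COL1A1 was also lowest at T0-2 in most sets, though with wide spread. T0-2 was its lowest window in 7 of 8 sets, as it was for 7.41% of genes. In nuclear nascent RNA T8-10 libraries had 1.80 and 6.63 RPKM, against 0.649 and 0.397 RPKM at T0-2, with a difference of 2.30 ± 0.60 and an adjusted p of 0.113. Without the T8-10 library numbered 1 the difference was 3.17 with an adjusted p of 0.0282. There the lone T8-10 library is assumed to vary like the other groups, and 669 genes (6.86%) passed in place of 35. In nuclear input RNA T8-10 had 2.87 and 5.25 RPKM, against 0.569 and 2.71 RPKM, a difference of 1.41 ± 0.68 with an adjusted p of 0.448, and of 0.0104 with the block, where 22.2% of genes passed. COL4A1 was never lowest at T0-2 in the 8 sets, and its T8-10 minus T0-2 differences were -0.30, -0.29, -0.40 and -0.13 in whole-cell nascent, whole-cell input, nuclear nascent and nuclear input RNA. COL4A2 differed by -0.21, -0.33, -0.11 and -0.02 and COL12A1 by 0.06, -0.05, 0.10 and 0.43 in the same order. In whole-cell input RNA these differences were -0.50 by number 1 and -0.09 by number 2 for COL4A1, -0.60 and -0.06 for COL4A2, and -0.01 and -0.08 for COL12A1. None of the pooled differences passed.

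**Figure D3:**
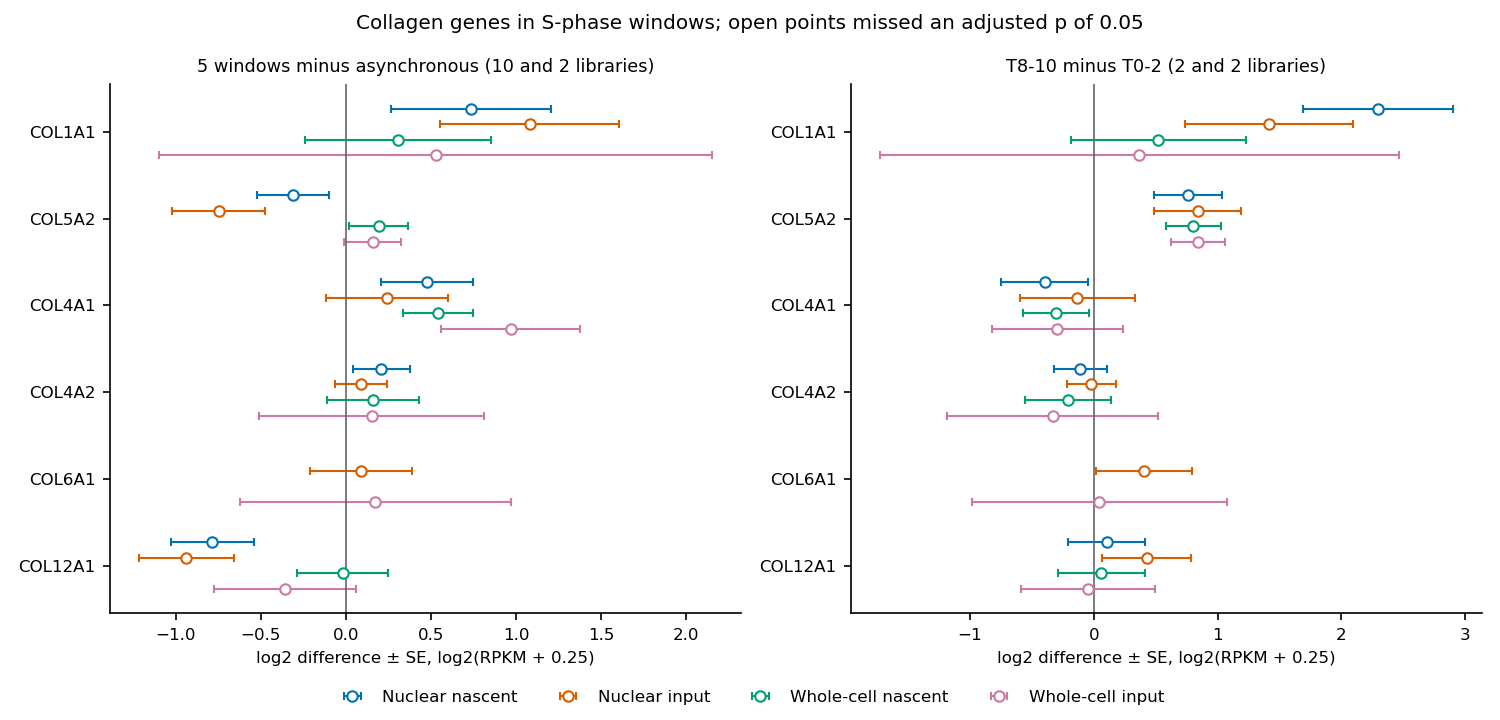
Log2 differences with SE on the log2(RPKM + 0.25) scale for 6 collagen genes, of the 5 windows minus asynchronous cells (left, 10 and 2 libraries) and of T8-10 minus T0-2 (right, 2 and 2 libraries), in 4 colours for 4 kinds of RNA. All points are open, since no gene passed an adjusted p of 0.05; COL5A2 lies between 0.76 and 0.84 at the right in all 4 kinds of RNA.

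In the control cells of the knockdown set, S6 was set against S0. COL1A1 had 4.34 and 1.84 RPKM at S6, against 0.702 and 0.575 RPKM at S0, with no overlap. The difference was 1.81 ± 0.82 with an adjusted p of 0.533. COL5A2 (0.31 ± 0.18), COL4A1 (0.40 ± 0.38) and COL4A2 (0.33 ± 0.45) were also higher in both S6 libraries than in both S0 libraries. With 2 against 2 libraries such separation can be common, and its share among all tested genes was not counted. None of the 6 members tested passed, and 0.0741% of tested genes did (857 at an unadjusted p under 0.05). At S4, between them, COL1A1 had 9.69 and 2.15 RPKM.

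The knockdown comparisons asked how collagen RNA differed between each knockdown and its controls. The 8 synchronised control libraries are the same in all 3 synchronised tables, and the 2 asynchronous controls the same in all 3 asynchronous tables, so the comparisons are not independent of one another.

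Both type IV chains and COL5A2 were lower after LUCAT1 knockdown in synchronised cells. COL4A2 had 1.6, 2.42 and 3.90 RPKM (lowest, median and highest of 8) in knockdown, against 3.93, 5.62 and 10.8 RPKM in control libraries. All knockdown libraries lay below all controls, and the log2 difference was -1.23 ± 0.18 with an adjusted p of 0.0015. COL4A1 had 3.11, 5.38 and 7.0 RPKM, against 5.22, 8.45 and 13.8 RPKM, a difference of -0.70 ± 0.16 with an adjusted p of 0.0102. COL5A2 had 0.726, 0.889 and 1.19 RPKM, against 1.13, 1.47 and 1.84 RPKM, a difference of -0.54 ± 0.09 with an adjusted p of 0.0033. Both of these overlapped their controls. Thus 3 of 6 tested members were lower and none was higher, where 8.12% of tested genes were lower and 19% higher (27.2% in all). The members' median was -0.55, against 0.11 for all tested genes. Scaling each library to its median moved the division of all genes to 895 higher and 1390 lower, against 1879 and 801 as deposited. The 3 genes passed under each scaling tried.

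The sign was the same at each point. COL4A2 differed by -1.09, -1.40, -1.44 and -0.99 at S0, S2, S4 and S6, COL4A1 by -0.62, -0.74, -0.75 and -0.70, and COL5A2 by -0.55, -0.57, -0.55 and -0.48. A test of whether the difference varied between points passed for no gene (39 at an unadjusted p under 0.05). The members that did not pass were COL1A1 at -0.57 ± 0.30 (adjusted p = 0.162), COL12A1 at -0.28 ± 0.14 (adjusted p = 0.140) and COL6A1 at 0.07 ± 0.16. COL1A1 passed without the control S4 library numbered 2 (-0.82, adjusted p = 0.0246), and COL12A1 under median scaling (-0.44, adjusted p = 0.0380).

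In synchronised cells neither LINC00704 nor MIAT knockdown gave a pass among the 6 members tested. For LINC00704, 0.0212% of all tested genes passed (1559 at an unadjusted p under 0.05). COL4A2 averaged 3.32 ± 1.1 RPKM in LINC00704 knockdown and 6.23 ± 2.2 RPKM in control libraries (SD, n = 8 each), a difference of -0.87 ± 0.23 with an adjusted p of 0.265. COL4A1 differed by -0.47 ± 0.19 (adjusted p = 0.273). Without the S0 knockdown library numbered 3 both passed, at -1.05 (adjusted p = 0.0309) and -0.60 (adjusted p = 0.0496), and 1035 genes (11% of those tested) passed in place of 2. For MIAT, 7.63% of tested genes passed, 4.84% higher and 2.79% lower. COL5A2 differed by -0.24 ± 0.14, COL4A2 by -0.23 ± 0.20 and COL4A1 by -0.00 ± 0.17. COL5A2 passed without the MIAT knockdown S6 library numbered 2 (-0.36, adjusted p = 0.0496). In 1 MIAT knockdown S6 library COL1A1 reached 12.4 RPKM, the highest of the 16.

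**Figure D4:**
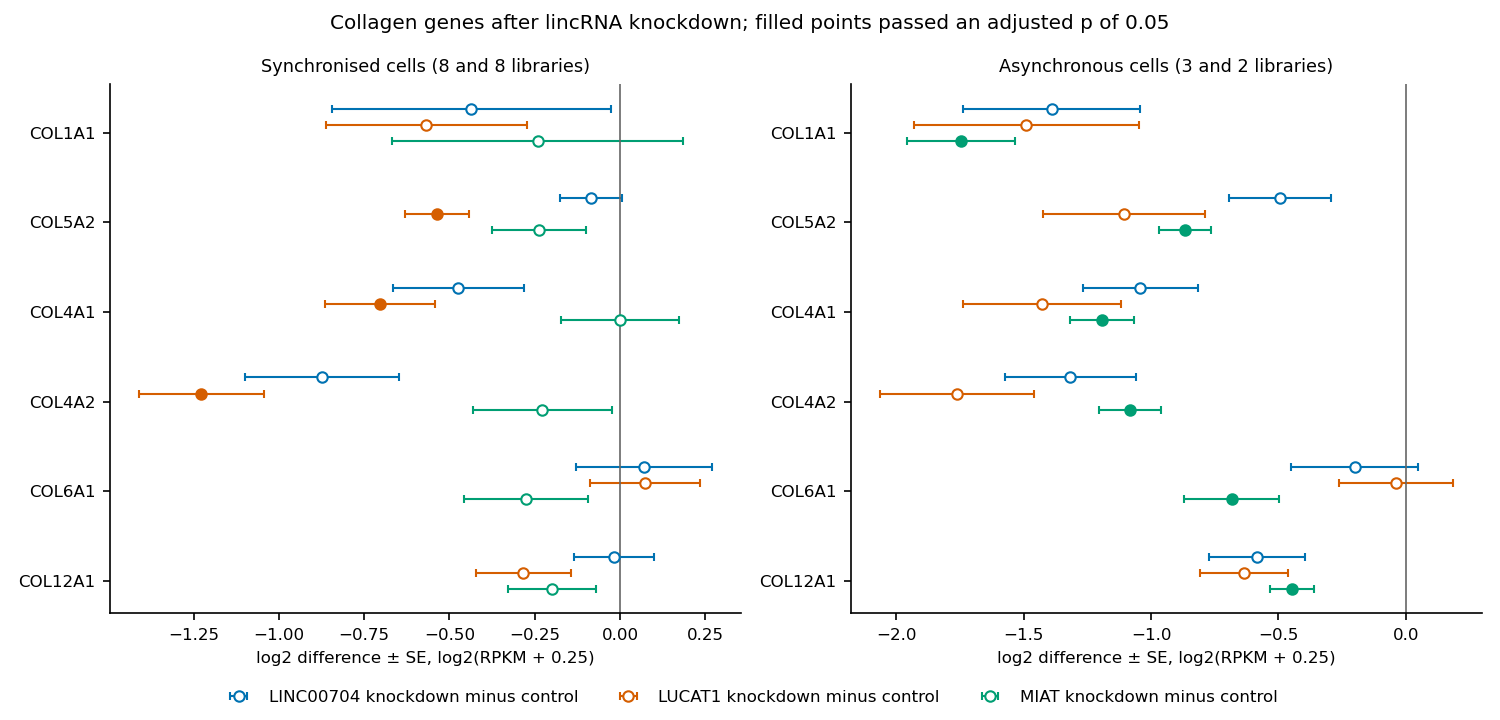
Log2 differences with SE, knockdown minus control on the log2(RPKM + 0.25) scale, for 6 collagen genes in synchronised cells (left, 8 and 8 libraries) and asynchronous cells (right, 3 and 2 libraries), coloured by targeted RNA; filled points passed an adjusted p of 0.05. At the left 3 points are filled, all of LUCAT1 knockdown, and at the right 6, all of MIAT knockdown.

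All 6 members tested were lower after MIAT knockdown in asynchronous cells. COL1A1 had 1.39, 0.827 and 0.828 RPKM in the 3 knockdown libraries, against 4.55 and 3.36 RPKM in the 2 controls. The difference was -1.75 ± 0.21 with an adjusted p of 0.0016. COL4A1 had 2.48, 2.08 and 1.94 RPKM, against 5.64 and 4.87 RPKM (-1.19 ± 0.13, adjusted p = 0.0010). Its partner COL4A2 had 1.99, 1.70 and 1.55 RPKM, against 4.25 and 3.69 RPKM (-1.08 ± 0.12, adjusted p = 0.0013). Both chains of type IV lay well below their controls in all 3 libraries. COL5A2 had 1.44, 1.21 and 1.24 RPKM, against 2.72 and 2.41 RPKM (-0.87 ± 0.10, adjusted p = 0.0015). COL6A1 had 0.565, 0.352 and 0.289 RPKM, against 0.915 and 0.664 RPKM (-0.68 ± 0.19, adjusted p = 0.0240). COL12A1 had 3.19, 3.23 and 3.05 RPKM, against 4.37 and 4.43 RPKM (-0.45 ± 0.09, adjusted p = 0.0069). For each of the 6 genes all knockdown libraries lay below both controls. The share of all tested genes that lay so was not counted, so this describes the members only. The background was large, with 31.1% of tested genes lower and 12.6% higher (43.7% in all). The members' median was -0.97, against -0.12 for all tested genes.

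The smallest of these differences were the least secure. COL12A1 did not pass under quantile scaling (-0.23, adjusted p = 0.0736) or without the control library numbered 1 (adjusted p = 0.0552). COL6A1 did not pass without that control (adjusted p = 0.162), without knockdown library 2 (adjusted p = 0.0598) or without library 3 (adjusted p = 0.0523). Quantile scaling moved the division of all genes to 1358 higher and 1701 lower, against 1155 and 2861 as deposited. The weak members COL3A1 and COL6A2 lay the other way, COL3A1 averaging 0.0604 RPKM in knockdown and 0.0136 RPKM in control libraries and COL6A2 0.0452 and 0.0176 RPKM. With no filter on low values COL3A1 passed as higher (0.23 ± 0.06, adjusted p = 0.0333), and COL6A2 did not (0.14 ± 0.06, adjusted p = 0.119). In that fit 5782 of 15046 genes passed, 2604 of them as higher, so that a pass there was common. The median of other-tissue markers was 0.0198, 0.0306 and 0.0306 RPKM in the knockdown libraries, against 0.0195 and 0.0141 RPKM in the controls, and its part in the values of these 2 genes was not tested. COL3A1 was at 0.0360 to 0.0832 RPKM in the knockdown libraries, above that median in each.

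No member passed after LINC00704 or LUCAT1 knockdown in asynchronous cells. Most members lay below both controls, and how many of all tested genes did so was not counted. Over all tested genes 0.0557% passed for LINC00704 (1115 at an unadjusted p under 0.05) and 0.209% for LUCAT1 (2100). After LUCAT1 knockdown COL4A2 had 1.65, 0.741 and 0.879 RPKM, against 4.41 and 3.83 RPKM (-1.76 ± 0.30, adjusted p = 0.0713). COL4A1 had 2.88, 1.33 and 1.65 RPKM, against 5.85 and 5.04 RPKM (-1.43 ± 0.31, adjusted p = 0.105). The knockdown library numbered 1 was the nearest to the controls in both genes. Without it 5 members passed, COL4A2 at -2.04 (adjusted p = 3.7e-04), but so did 4563 genes (48.4%) in place of 20, so that these passes are no result about the members. No gene passed when any other library was left out. COL1A1 differed by -1.49 ± 0.44, COL5A2 by -1.11 ± 0.32, COL12A1 by -0.63 ± 0.17 and COL6A1 by -0.04 ± 0.23. Of these genes, COL6A1 alone overlapped its controls.

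After LINC00704 knockdown COL1A1 had 2.10, 1.45 and 0.752 RPKM, against 4.57 and 3.35 RPKM (-1.39 ± 0.35, adjusted p = 0.201). COL4A2 had 1.98, 0.982 and 1.52 RPKM, against 4.28 and 3.68 RPKM (-1.32 ± 0.26, adjusted p = 0.155). COL4A1 had 3.23, 1.98 and 2.20 RPKM, against 5.67 and 4.86 RPKM (-1.04 ± 0.22, adjusted p = 0.173). COL12A1 differed by -0.58 ± 0.19, COL5A2 by -0.49 ± 0.20 and COL6A1 by -0.20 ± 0.25, and here too COL6A1 alone overlapped its controls. The authors' deposited table of this comparison gives COL1A1 a log2 fold change of -1.40 with an FDR of 2.4e-07, and COL4A2 one of -1.36 with an FDR of 3.4e-06. COL4A1 is at -1.06 there, with an FDR of 4.2e-04. The authors' deposited table for LUCAT1 gives COL4A2 -1.83 with an FDR of 2.5e-13, and their deposited table for MIAT gives COL1A1 -1.86 with an FDR of 1.8e-57. For LUCAT1 it also gives COL1A1 -1.45 (FDR 7.4e-11), COL4A1 -1.43 (FDR 4.1e-09) and COL5A2 -1.12 (FDR 1.7e-07). COL12A1 is at -0.66 (FDR 0.0618) and COL6A1 at -0.04 (FDR 0.581) after LUCAT1 knockdown. For COL5A2 after LINC00704 knockdown the authors' deposited table gives -0.51 with an FDR of 0.119, for COL12A1 -0.59 (FDR 0.341) and for COL6A1 -0.21 (FDR 0.613). Some of the weak genes are higher in the authors' deposited tables, COL6A2 after LUCAT1 knockdown at 0.72 (FDR 9.8e-09), COL5A1 after LUCAT1 knockdown at 0.25 (FDR 5.9e-06), COL3A1 after MIAT knockdown at 0.50 (FDR 1.7e-18) and COL6A2 after MIAT knockdown at 0.30 (FDR 0.0039). The sources used here do not name the test behind those FDRs.

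**Figure D5:**
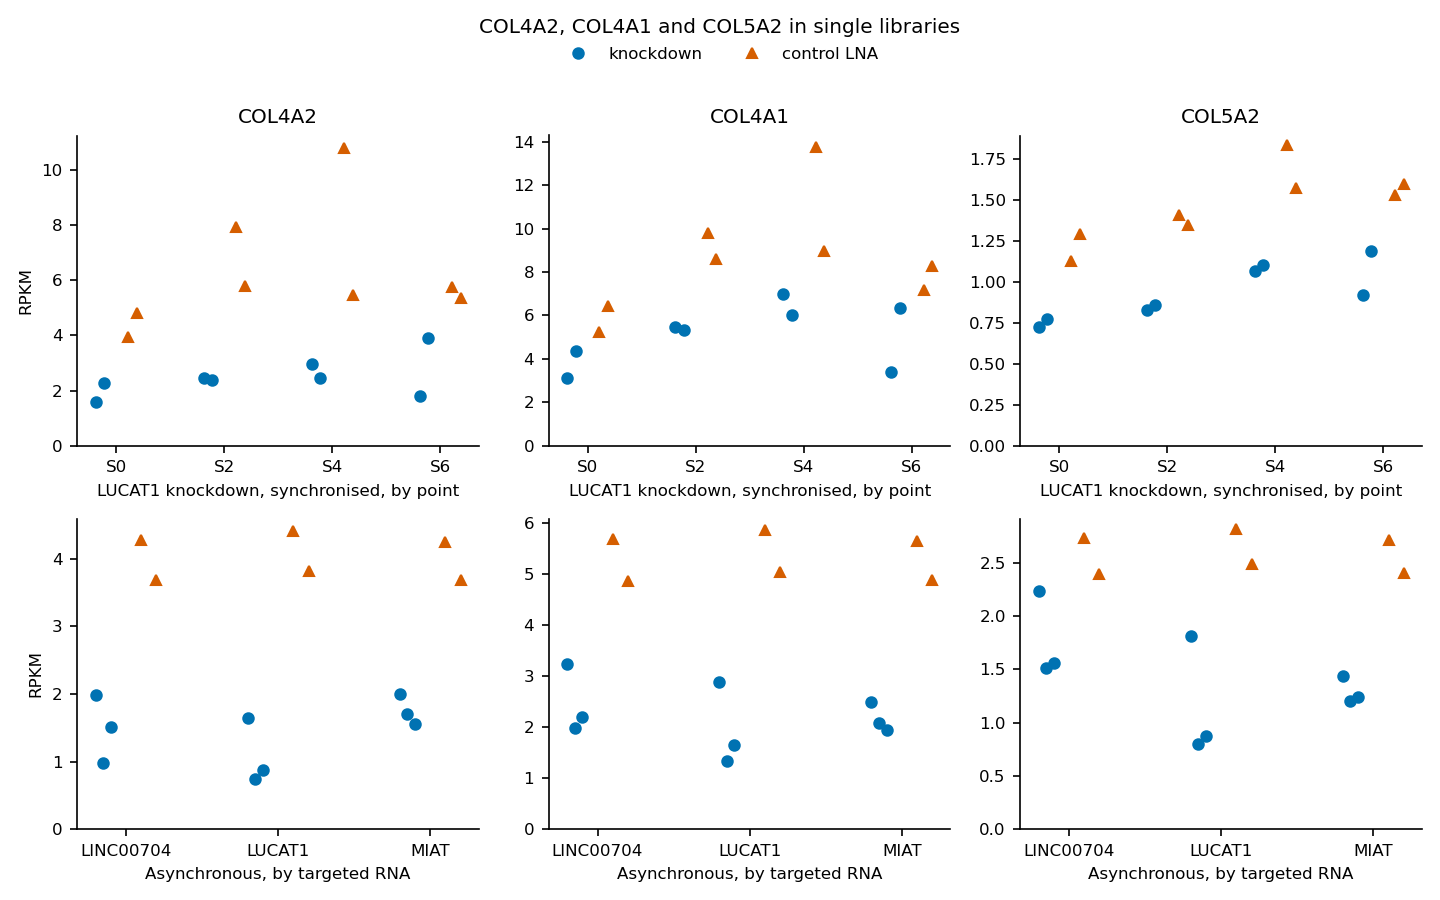
RPKM of COL4A2, COL4A1 and COL5A2 in single libraries (linear axes from 0), for LUCAT1 knockdown in synchronised cells by point (upper row) and for each knockdown in asynchronous cells (lower row); blue circles are knockdown and orange triangles control libraries. At each of S0, S2, S4 and S6 both COL4A2 knockdown libraries lie below both controls, and the asynchronous controls drawn 3 times are the same 2 libraries.

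The same lists were read in the knockdowns, with values given as knockdown against control. After LUCAT1 knockdown in synchronised cells no gene of the 6 lists was higher. Lower were 7 of 19 modifying enzymes and chaperones, 3 of 5 processing and crosslinking enzymes, 5 of 10 matrix partners, 2 of 6 collagen receptors, 2 of 4 genes of collagen breakdown and 2 of 7 other collagens, where 8.12% of all tested genes were lower (14.1% under median scaling). Of these 21 passes 21 held under median scaling and 20 under quantile scaling, and 11 were left without the control S0 library numbered 2 or the knockdown S2 library numbered 2. The medians were -0.32, -0.64, -0.57, -0.27, -0.52 and -0.27 in the same order, against 0.11 for all tested genes. LOX, a lysyl oxidase that crosslinks fibrils, had 4.72 against 13.8 RPKM (-1.59, adjusted p = 0.0029), and LOXL2 -0.94. The lysyl hydroxylase PLOD1 was at -0.89, the basement membrane proteoglycan gene HSPG2 at -0.98, the collagen-binding gene SPARC at -0.74, and the membrane collagenase gene MMP14 at -0.98. Of the markers, 1 of 5 tested mesenchymal genes (the receptor gene PDGFRB, -1.32) and 2 of 3 keratins and junction genes (KRT8, -0.52, and KRT7, -0.35) were lower too, and 0 of 2 pigment epithelium genes; no endothelial, blood or neural marker reached the filter. The part of these markers in the collagen values was not tested. After MIAT knockdown in synchronised cells 2 of 19 modifying enzymes (PPIB, a prolyl isomerase, at -0.94, and COLGALT1, a collagen galactosyltransferase, at -0.67), 2 of 5 processing enzymes (LOX at -0.79 and LOXL2 at -0.58) and 1 of 10 matrix partners (NID2, a nidogen of basement membranes, at -0.41) were lower, and no gene of the lists was higher, where 2.79% of all tested genes were lower. Their medians were -0.29, -0.37 and -0.35, against -0.03 for all tested genes. Of these 5 passes 1 was left under quantile scaling and without any 1 of 8 libraries.

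After MIAT knockdown in asynchronous cells, 11 of 18 modifying enzymes and chaperones, 3 of 4 processing enzymes, 7 of 10 matrix partners, 1 of 4 breakdown genes and 1 of 4 other collagens were lower and none was higher, where 31.1% of all tested genes were lower and 12.6% higher. The breakdown genes and other collagens were thus near the share of all genes. Of 6 receptors 2 were lower and 2 higher, the integrin subunits ITGA10 (0.91) and ITGA2 (0.62). The medians were -0.52, -0.49, -0.42, -0.30, -0.22 and, for receptors, 0.12, against -0.12 for all tested genes. SERPINH1 had 23.7 against 49.6 RPKM (-1.06, adjusted p = 8.7e-04), P4HB 15.8 against 28.4 RPKM (-0.83) and HSPG2 1.54 against 3.19 RPKM (-0.95). Of the 27 passes 19 held under quantile scaling and 17 without the control library numbered 1, where 1571 genes passed in place of 4016. COL4A4, a chain of another type IV network, had 0.209 against 0.596 RPKM (-0.88). Of 5 tested mesenchymal markers PDGFRB (-1.10) was lower and FAP (0.29) higher, and of 3 keratins and junction genes KRT8 (-0.71) and KRT18 (-0.60) were lower; their part in the collagen values was not tested. LINC00704 knockdown in either cell state, and LUCAT1 knockdown in asynchronous cells, gave no pass in any of the 6 lists.

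The share of each collagen class in the members' summed RPKM is given as a description. In asynchronous cells the type IV pair held 36.2, 28.3 and 30.1% of the sum in LUCAT1 knockdown libraries, against 44.1 and 44.0% in controls, and the beaded genes held 8.60, 8.82 and 11.2%, against 4.12 and 3.54%. LINC00704 knockdown libraries had 40.5, 31.5 and 37.3% for type IV, and MIAT knockdown libraries 40.0, 39.7 and 38.8%, against 44.0 to 44.1% in the same controls. The type IV share was thus below both controls in each of these libraries. COL12A1 held 28.6, 33.9 and 33.9% in MIAT knockdown libraries, against 19.4 and 22.8% in controls. In synchronised cells the type IV share was 44.8, 55.9 and 61.7% (lowest, median and highest of 8) in LUCAT1 knockdown, against 56.2, 63.6 and 69.1% in control libraries, and these ranges overlapped. The median was 54.2% in LINC00704 and 65.0% in MIAT knockdown, the MIAT one above that of the controls. Shares within a sum are tied to one another, and no test was made of them.

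Over the 48 libraries of the window set the members did not share a single profile. Likeness was measured as the root mean square difference of log2(RPKM + 0.25) after each gene was centred within each table, among 8491 other genes. The nearest gene to COL1A1 was COL7A1, the chain of anchoring fibrils, at 0.34, while COL1A1 itself varied by 1.14. COL4A2 was the third nearest gene to COL4A1 at 0.32, behind SYNM (0.27) and SLC1A4 (0.28). Seen from COL4A2, COL4A1 ranked 250th, behind PCNT (0.21), PLXND1 (0.21) and NFASC (0.22). The nearest to COL12A1 was FN1, the fibronectin gene, at 0.18, followed by FAT1 (0.18) and ALDH18A1 (0.20). COL5A2 was nearest to PTCD2 (0.21), ERCC6 (0.23) and TTC5 (0.23). Seen from COL5A2, COL1A1 ranked 8447th, and seen from COL1A1, COL5A2 ranked 4327th. COL1A1, with its wide variation, also ranked 8403rd from COL4A1 and 8467th from COL12A1. These distances describe libraries that share depth and background, and carry no test.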

How the data were processed

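RNA of hTERT-RPE1 cells was measured by sequencing in 91 libraries, given as 1 column each in 10 tables, per the file headers. The values are RPKM as the authors deposited them. The asynchronous knockdown tables also hold the authors' deposited log2 fold change, p-value and FDR (a q-value), by a test that their headers do not name, and a gene length in base pairs, which was used as deposited. STAR 2.5.3, featureCounts 1.6.1, edgeR (no version given) and HOMER 4.10.3 are named for 96 samples and Bowtie2 2.3.4.3 for 85 in the submitters' processing notes, on hg38, with no order or role. The series' design text calls the knockdown RNA-seq strand-specific. For the other tables the use of strand is not stated in the sources used here.

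Synchronised knockdown columns were matched to groups, since their header numbers differ from the sample titles. In each library RPKM times gene length came out as whole multiples of a common step (100% of values up to 200 steps, within 0.05 of a step), from which reads per library were taken. COL1A2 has no length in the files. Where 2 or more libraries of a table reached 0.5 RPKM, a gene was tested with limma 3.58.1 (R 4.3.3) on log2(RPKM + 0.25). The fit had a mean for each group of the table and eBayes with a trend, and p-values were adjusted by Benjamini and Hochberg's method over all genes tested. It was tested on simulated data. Fold differences are on that scale and understate changes of low genes. Tables were scaled separately, so tests stayed within a table. With 2 libraries a group, deviations from the group mean mirror each other, so both numbers give the same r for a pair of groups. In nuclear input RNA libraries numbered alike correlated in these deviations in every pair of groups (r of 0.627 to 0.861). Blocked values are therefore given beside those results. Other tables did not meet this over all groups.

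All 10 members are named, with at most the 4 passing genes of largest difference from each list, and the 3 nearest genes by profile. The members and lists were chosen with earlier results of these data known. Alternatives were pseudocounts of 0.1 and 1, no filter or one of 1 RPKM, median and quantile scaling, a replicate block, and leaving out each library. Values by library number, list counts under alternatives and single weak genes with no filter were added after seeing the data. Chromatin samples were left out. Python 3.11.15 and matplotlib 3.10.9 drew the figures. Promoter sequence and coordinates are RefSeq's on GRCh38.p14; 5 of 10 members matched the promoter table.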

Additional observations from a re-analysis of the deposited data

Results flagged for a closer look

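Of 80 pairs of effects compared for direction, 3 lay in opposite directions with no overlap of 2 against 2 libraries, all in members below the 0.5 RPKM filter. COL3A1 in LINC00704 knockdown had 0.0532 and 0.0352 RPKM, against 0.0346 and 0.0142 RPKM in control libraries, at S2, and 0.0349 and 0.0348 RPKM, against 0.0577 and 0.0353 RPKM, at S4. The 2 log2 differences were 0.158 apart. COL5A1 in LINC00704 knockdown had 0.0312 and 0.0307 RPKM, against 0.0290 and 0.0255 RPKM in control libraries, at S6, and 0.00618 and 0.0118 RPKM, against 0.0143 and 0.0163 RPKM, at S0. These were 0.0542 apart. COL6A2 at T8-10 had 0.0835 and 0.111 RPKM, against 0.0605 and 0.0466 RPKM at T0-2, in nuclear nascent RNA, and 0.0319 and 0.0353 RPKM, against 0.0430 and 0.104 RPKM, in whole-cell nascent RNA, 0.376 apart. None of these differences was tested. How often such opposite pairs arise among all genes was not counted, so the 3 are no result about the members.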

How the results depend on the processing

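No member that passed changed direction under these alternatives. Differences that had not passed changed sign 91 times over genes and settings, among them those by library number in whole-cell RNA. Under other pseudocounts, filters and scalings the number of members that passed stayed within 1.5 times that reported in every comparison. With no filter 7 members passed in asynchronous MIAT knockdown in place of 6, COL3A1 being added, and 5782 of 15046 genes passed there. With the library number as a block, 3 members passed for windows against asynchronous cells and 2 for T8-10 against T0-2 in nuclear input RNA. In tables where the numbers are not known to pair libraries, the block gave 3 members for LINC00704 and 3 for LUCAT1 knockdown in asynchronous cells, and 1 for S6 against S0 in the control libraries alone (COL1A1, adjusted p = 0.0334, chosen after seeing the data); it changed no other count of members, and the cause was not tested. Same-numbered libraries correlated at -0.308 to 0.402 in nuclear nascent RNA. In whole-cell RNA pairs of windows correlated at 0.289 to 0.594 (nascent) and 0.878 to 0.939 (input), and pairs with asynchronous cells at -0.269 to 0.166 and -0.562 to -0.471, so the numbers may pair the windows but not the asynchronous libraries. No paired analysis was possible for synchronised knockdown against control because the header numbers of the knockdown columns run to 3 and those of the sample titles to 2, so that no column could be given a title's number. Leaving out 1 library at a time gave 0 to 2 members for LINC00704, 3 to 4 for LUCAT1 and 0 to 1 for MIAT knockdown in synchronised cells, 0 to 5 for LUCAT1 and 4 to 6 for MIAT knockdown in asynchronous cells, and 0 to 1 for T8-10 against T0-2 in nuclear nascent RNA. Counts over all genes moved more. Windows against asynchronous cells gave 41 genes in whole-cell nascent RNA (20 to 94 under other settings, 278 with the block), 3 in whole-cell input (0 to 6, block 191), 440 in nuclear nascent (244 with no filter, 229 by quantile) and 440 in nuclear input RNA (1289 with no filter, 3314 with the block). T8-10 against T0-2 gave 0 in whole-cell RNA (block 5 in each, scaling 1 in input), 35 in nuclear nascent (6 to 81) and 40 in nuclear input RNA (block 2142). S6 against S0 gave 7 (0 to 95, block 276), MIAT knockdown in synchronised cells 727 (469 to 1577), LINC00704 2 (1 with no filter), and asynchronous knockdown 5 for LINC00704 (0 to 9, block 153) and 20 for LUCAT1 (0 to 48, block 482). Leaving out 1 library moved these counts to 0 to 43 for LINC00704, 0 to 4563 for LUCAT1 and 1571 to 4632 for MIAT knockdown in asynchronous cells. In synchronised cells they were 1 to 1035, 1446 to 3770 and 359 to 984. They were 3 to 25 and 0 to 2 in whole-cell nascent and input RNA and 4 to 591 and 0 to 286 in nuclear nascent and input RNA for windows against asynchronous cells. They were 0 to 5, 0, 2 to 669 and 0 to 26 for T8-10 against T0-2 in the same order, and 0 to 90 for S6 against S0. The 4 weak members stayed below 0.5 RPKM. In whole-cell nascent RNA median counts were few for COL3A1 (41.5 reads) and COL6A2 (27), but not for the long gene COL5A1 (206.5). Reads of COL1A2, which has no length, were not taken.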
